A study of Mus musculus with 3 samples.

Results

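Osteoclast-lineage cells of mouse bone marrow (BM) were selected on measured molecules in 3 single-cell libraries of C57/B6 wild-type mice, and 511 of the 24875 cells in the series met the rule. A cell was counted if it had at least 20 molecules in all, at least 1 of Ptprc, at least 3 of Acp5 and at least 2 of Ctsk and Atp6v0d2 together. The libraries were E18.5 EC, endothelial cells sorted from embryonic BM, and 2 libraries named E18.5 BM cells (embryonic) and Adult BM cells, made after removal of mature haematopoietic cells by lineage antibodies. Each held cells pooled from several animals, and no mutant or treated group was among them. A primer panel amplified chosen targets, which were counted as molecules with unique molecular identifiers. Ptprc encodes CD45, the surface phosphatase shared by blood cells other than mature erythrocytes and platelets. The rule found 501 members in E18.5 BM cells and 10 in E18.5 EC, whereas Adult BM cells had 0, so comparisons were made only in E18.5 BM cells, against the 10029 other cells with Ptprc of that library.

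Osteoclasts are bone-resorbing cells of the myeloid lineage that form by fusion of mononuclear precursors. They attach to bone, acidify the space beneath them with a vacuolar proton pump and release proteases that break down collagen, and in growing bones they help to open the marrow cavity. Acp5 encodes tartrate-resistant acid phosphatase, Ctsk encodes cathepsin K, the main collagen-degrading protease of osteoclasts, and Atp6v0d2 encodes a subunit of the proton pump that is also needed for precursor fusion. Mmp9, a gelatinase, and Spp1, which encodes the matrix protein osteopontin, are 2 further osteoclast markers that the rule did not use.

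Promoters of 2 targets that chose the cells and of S100a4, the target with the most molecules in them, are shown to place the genes in the genome. Each is the 250 bases before a RefSeq transcript start in GRCm38.p6, written in the direction of transcription, and capitals mark the letters GAGGAA or their reverse complement TTCCTC, a core of sites bound by the myeloid factor PU.1.
Acp5: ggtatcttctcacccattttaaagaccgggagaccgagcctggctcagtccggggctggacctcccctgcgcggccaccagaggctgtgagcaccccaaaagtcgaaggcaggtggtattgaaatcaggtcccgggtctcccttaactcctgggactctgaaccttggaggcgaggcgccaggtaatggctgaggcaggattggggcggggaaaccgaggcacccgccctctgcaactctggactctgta
Ctsk: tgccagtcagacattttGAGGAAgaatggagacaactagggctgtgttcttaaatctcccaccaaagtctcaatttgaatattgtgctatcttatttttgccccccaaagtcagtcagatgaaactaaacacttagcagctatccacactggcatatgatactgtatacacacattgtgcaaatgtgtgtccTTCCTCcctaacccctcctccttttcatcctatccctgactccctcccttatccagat
S100a4: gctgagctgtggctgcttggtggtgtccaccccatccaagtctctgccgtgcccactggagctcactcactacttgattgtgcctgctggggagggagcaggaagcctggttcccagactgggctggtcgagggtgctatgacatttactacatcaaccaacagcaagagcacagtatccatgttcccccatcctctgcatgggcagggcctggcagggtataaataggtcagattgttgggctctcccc
The Acp5 window was chr9:22131866-22132115 on the minus strand, the Ctsk window chr3:95498960-95499209 and the S100a4 window chr3:90603520-90603769, both on the plus strand. Among them only Ctsk held the PU.1 letters, 233 and 58 bases before the start, and in the corresponding window of Spp1 they lay 113 bases before it. The letters occurred on either strand in 23.3% of the 32851 promoter windows of this length. The AP-1 letters TGACTCA or TGAGTCA, the NFAT letters TGGAAA and the MITF letters CATGTG, present in 4.46%, 18.6% and 12.3% of all windows on either strand, were in none of these 4 windows. Such matches describe letters only. There were 3 promoter windows for Acp5 and 2 for Spp1, and letters in those not named here are not described. The counted transcripts were annotated on GRCm38 at chr9:22126727-22131815 for Acp5 (5 exons), chr3:95499256-95509362 for Ctsk (8 exons), chr4:19876841-19922605 for Atp6v0d2 (8 exons), chr2:164948219-164955850 for Mmp9 (13 exons) and chr3:90603771-90606045 for S100a4 (3 exons).

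Depth differed between libraries, with a median of 83 molecules per cell for the sorted E18.5 EC library, 96 for E18.5 BM cells and 242 for Adult BM cells, and 432987 to 6304495 molecules in all. Amplification can differ between targets of a panel, so molecules were compared between cells and not between targets. Cell barcodes shared between libraries numbered 38 to 113 per pair, and 2 and 5 of the 501 members had a barcode that also occurred in E18.5 EC and in the adult library. With 1 library in each group, no test across samples was possible, and the intervals given are 95% intervals that cover counting error alone. Those of ratios treat molecules as independent and so understate the spread between cells, also where they are said to include or exclude 1.

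Members made up 4.76% of the 10530 cells with Ptprc in E18.5 BM cells (4.36 to 5.18, exact binomial) and 0.972% of 1029 in E18.5 EC (0.467 to 1.78). They were 0 of 1670 in the adult library, where the exact binomial interval reaches up to 0.221%. With molecules before the last error correction (RSEC) or with raw molecules the adult share was 0.679% (22 cells) or 0.710% (23 cells). What else those cells contained is not described here. The study's methods describe a removal of CD45 cells from adult marrow for other libraries and do not say whether it was done for this one. Such a step would take away cells with Ptprc, and its part in the adult value was not tested. These are shares of depleted or sorted cells and not of the marrow. Stage cannot be told apart from library, preparation and depth. Depth also bears on whether a cell can meet the rule. When the members of E18.5 BM cells were thinned to 96 molecules, the median of adult cells with Ptprc, 227 of 497 (45.7%) still met it, and 64.6% did so when Ptprc was not asked for. Thinned to 50 molecules, 103 of 498 still met it. At least 3 Acp5 molecules, with no condition on Ctsk and Atp6v0d2, were found in 2287 cells with Ptprc of E18.5 BM cells (21.7%), in 433 of E18.5 EC (42.1%) and in 25 of the adult library.

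**Figure D1:**
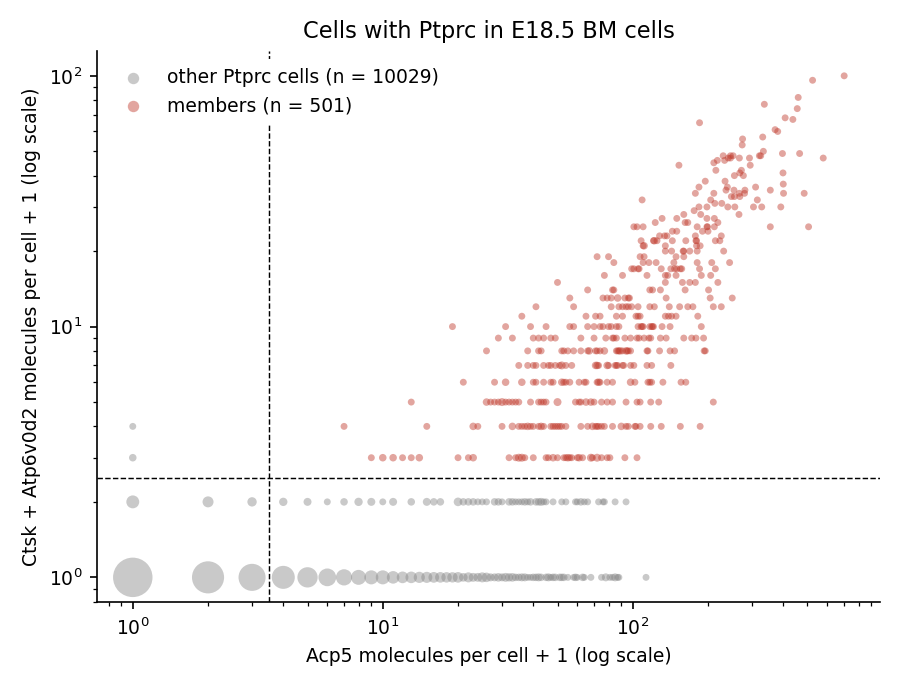
Each point is 1 combination of Acp5 molecules (x axis) and Ctsk plus Atp6v0d2 molecules (y axis) in the cells with Ptprc of E18.5 BM cells, both plus 1 on log scales, with point area growing with the number of cells and dashed lines at the thresholds. The 501 members (red) run from 6 to 700 Acp5 molecules, and most other cells (grey) lie at or near 0 on both axes.

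The members were chosen by Ptprc, Acp5, Ctsk and Atp6v0d2, whose values are given as a description. Acp5 ranged from 6 to 700 molecules per member with a median of 93, far above the threshold of 3, and only 4 members had fewer than 10. Atp6v0d2 was found in 497 members, with a median of 6 molecules and a highest value of 58. Ctsk was found in 302 members, with a median of 1 and a highest value of 44, so 199 members met the rule through Atp6v0d2 alone. The members were also deeper than the rest, with a median of 371 molecules (27 to 1353) against 88 in the other cells with Ptprc. Ptprc itself was alike in both, with 5.73 molecules per member and 5.48 per other cell.

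Of the cells just inside and outside the thresholds, 50 members had exactly 2 molecules of Ctsk and Atp6v0d2, and 84 other cells with at least 3 Acp5 molecules had exactly 1. Median Acp5 was 46 in the former and 23.5 in the latter. Both stood apart from the 1702 cells with at least 3 Acp5 molecules and none of Ctsk or Atp6v0d2, whose median was 4. Cells with 2 or more molecules of Ctsk and Atp6v0d2 but fewer than 3 of Acp5 numbered 3. The boundary set by Ctsk and Atp6v0d2 therefore runs through a continuous range of cells. The Acp5 boundary was crowded in the whole library, with 542 cells at exactly 3 Acp5 molecules, but not among cells with at least 2 molecules of Ctsk and Atp6v0d2, where the lowest Acp5 count of a member was 6.

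Acp5 and S100a4 filled most of what was counted in the members. Acp5 was 29.5% of their molecules against 1.88% in the other cells with Ptprc, and S100a4, which encodes a small calcium-binding protein of motile and myeloid cells, was 48.3% against 8.95%. The main measure here, called the level, is the number of molecules of a target per 10000 molecules of all targets outside the rule. Because S100a4 is in that denominator, the level of most other targets was low in the members, and the median ratio of members to other cells over 95 targets tested was 0.280, or -1.84 on the log2 scale. After the data were seen, 2 further measures were added, namely molecules per cell, with a median ratio of 0.737 (-0.44 on the log2 scale), and a rest-of-panel level that leaves S100a4 out of the denominator, with a median ratio of 0.955 (-0.07). Members held 71.5 molecules per cell outside the rule targets and S100a4, and other cells 92.7.

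By level, 2 targets (2.11% of those tested) were at least 2-fold higher in the members, Mmp9 and S100a4, and 83 (87.4%) were at least 2-fold lower. By molecules per cell, 5 (5.26%) were higher and 33 (34.7%) lower. These counts go by the ratio itself, at 2 or more or 0.5 or less, and the interval of the ratio per cell lay on that side of 1 for 4 of the 5 and 25 of the 33. By rest-of-panel level, 11 (11.6%) were higher and 30 (31.6%) lower. Mmp9 and S100a4 were past 2-fold on all 3 measures. The other 3 targets higher by molecules per cell were Ecm1, Wnt6 and Epyc, and the last of these rested on 6 molecules in 1 member. A target was tested if at least 5 molecules would be in the members at equal levels.

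**Figure D2:**
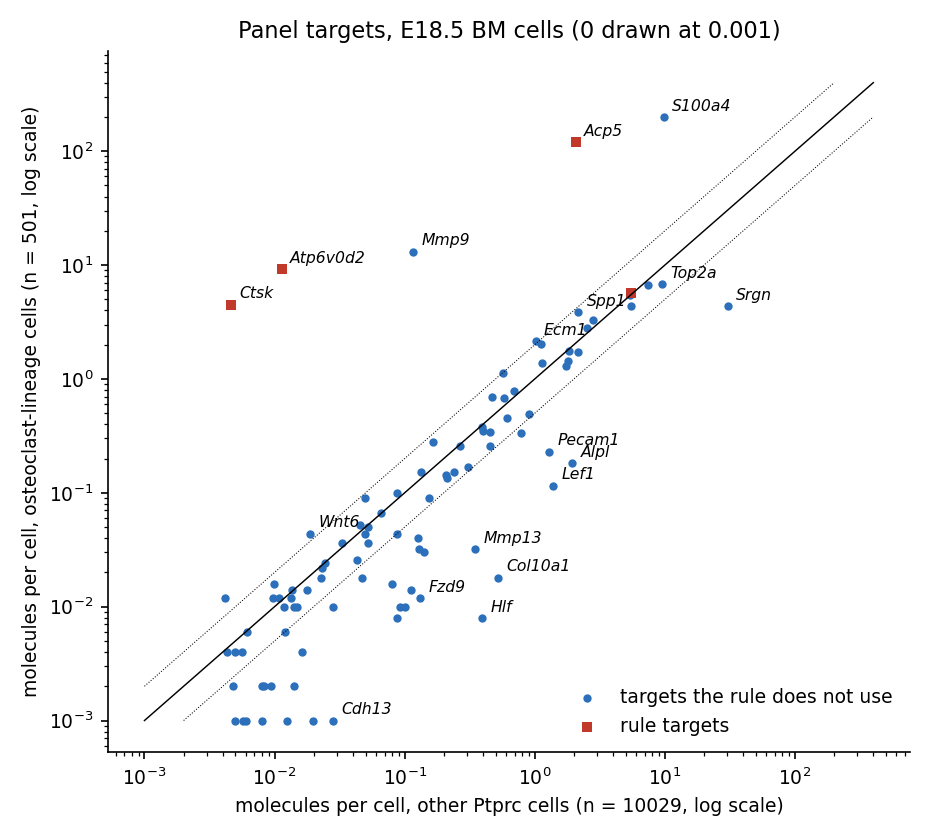
Mean molecules per cell in the 501 members (y axis) and the 10029 other cells with Ptprc (x axis) of E18.5 BM cells for the tested targets (blue) and the rule targets (red), on log scales, with values of 0 drawn at 0.001. The solid line marks equal values and the dotted lines a 2-fold difference, and Mmp9 and S100a4 are the blue points that lie well above them.

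Mmp9 had the highest ratio of members to other cells among the tested targets on all 3 measures. It ranged from 0 to 119 molecules per member with a median of 7, and was found in 453 members (90.4%, 87.5 to 92.9). In the other cells with Ptprc it ranged from 0 to 32 with a median of 0, and was found in 4.21%. The groups overlapped, since 48 members had none. Mean molecules per cell were 13.1 in members (SD over cells 16.5) and 0.116 in other cells, a ratio of 114 (107 to 121), and the ratio of levels was 43.2 (40.6 to 46.0). Members were 3.89% of the cells of the library and held 78.8% of its 8347 Mmp9 molecules.

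Mmp9 is also a granule enzyme of neutrophils, and it was the only target of the granulocyte list on the panel, so granulocyte RNA could not be measured by another marker here. Of the 548 cells of the library with at least 3 Mmp9 molecules, 369 were members, 136 were other cells with Ptprc and 43 had no Ptprc. Among the 136, 105 had at least 3 Acp5 molecules, and they averaged 73.0 S100a4 and 8.46 Srgn molecules per cell. Most cells with this much Mmp9 and Ptprc outside the rule thus carried Acp5. In cells with Ptprc and fewer than 3 Acp5 molecules, 1.94% had a molecule of Mmp9 at a median depth of 83, which is the background against which the share in members can be read. After thinning every cell to 30 molecules outside the rule targets and S100a4, which left out 90 members and 1416 other cells, Mmp9 was in 83.0% of members (79.0 to 86.5) and 2.60% of other cells, so the difference was also present at equal depth.

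S100a4 was found in every member. It ranged from 2 to 462 molecules with quartiles at 145 and 241, a narrow spread beside that of Acp5 or Mmp9, and averaged 198 per cell (SD over cells 77.9). The other cells with Ptprc ranged from 0 to 327, with a mean of 9.85 and a median of 1, and 52.3% of them had a molecule. The ratio was 20.1 by molecules per cell and 7.65 by level. Members held 48.6% of all S100a4 molecules of the library.

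Srgn was the reverse of S100a4. It encodes serglycin, the core protein of granule proteoglycans in blood cells, and made up 27.7% of the molecules of the other cells with Ptprc against 1.07% in members. Members had a median of 1 Srgn molecule and a mean of 4.39, with 65.3% of them having at least 1, and other cells a median of 17 and a mean of 30.5, with 97.3% having at least 1. The ratio of molecules per cell was 0.144 (0.138 to 0.150). A few members lay far above the rest, up to 198 molecules, so the groups overlapped. Srgn was named after its values were seen. Thinned in the same way, 46.7% of members and 94.4% of other cells had a molecule of it. The molecules per cell outside the rule targets, S100a4 and Srgn came to 67.1 in members and 62.1 in other cells.

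Spp1, the remaining marker, gave a mixed picture. Osteopontin is made by osteoclasts and also by osteoblasts and hypertrophic chondrocytes. A molecule was found in 143 members (28.5%, 24.6 to 32.7) and in 9.95% of other cells with Ptprc, while the median was 0 in both. Means were 3.84 and 2.16 molecules per cell, but 747 of the 1922 molecules in members came from a single cell. Without that member the mean was 2.35 and the ratio 1.09 (1.03 to 1.16) in place of 1.78. No cell was left out of the other cells, where the 5 osteoclast markers together reached 2946 molecules in a cell, so this trimming was 1-sided. By level the ratio was below 1, at 0.676, and 0.416 without that member. By rest-of-panel level, with all members, it was 2.30 (2.20 to 2.41). Among the 2354 cells of the library without Ptprc the mean was 27.3. Thinned to 30 molecules as above, Spp1 was in 23.6% of members (19.6 to 28.0) and 5.54% of other cells. Spp1 was thus present in more members than other cells, while the direction of its amount depended on the measure and the size of the ratio on single cells. Of the 5 osteoclast markers, Acp5, Atp6v0d2 and Mmp9 were found in over 90% of members, Ctsk in 60.3% and Spp1 in 28.5%.

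Ecm1, which encodes a secreted matrix glycoprotein, was present in most members and was named after its values were seen. Ecm1 was found in 70.9% of members and 30.5% of other cells, at 2.16 and 1.02 molecules per cell, a ratio of 2.12 (1.99 to 2.26). By level the ratio was below 1, at 0.806, since S100a4 took up the denominator. Thinned to 30 molecules outside the rule targets and S100a4, Ecm1 was in 50.6% of members and 17.2% of other cells.

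**Figure D3:**
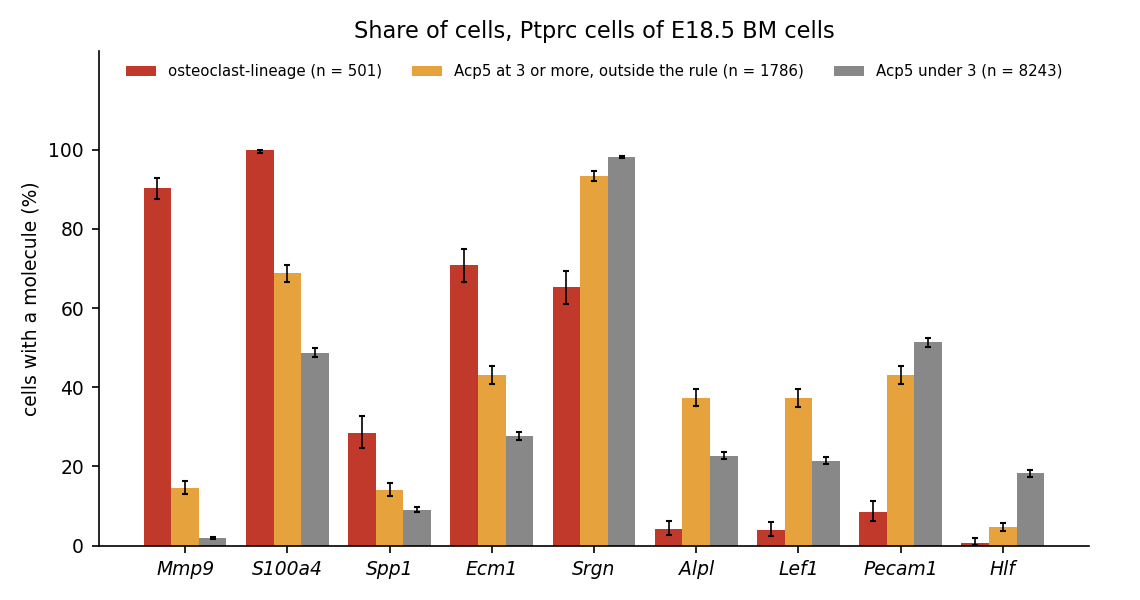
Share of cells with at least 1 molecule of each target (y axis, %) in E18.5 BM cells, for members (red), other cells with Ptprc and at least 3 Acp5 molecules (orange) and cells with Ptprc and fewer than 3 (grey), with exact binomial 95% intervals. Median depths were 371, 108 and 83 molecules, and the members stood highest for Mmp9, S100a4, Spp1 and Ecm1 and lowest for Srgn, Alpl, Lef1, Pecam1 and Hlf.

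The cells with at least 3 Acp5 molecules that failed the rule were not alike. With none of Ctsk or Atp6v0d2, 13.2% had Mmp9 and they averaged 22.9 S100a4 and 23.7 Srgn molecules. With exactly 1, 45.2% had Mmp9, with 110 S100a4 and 8.83 Srgn molecules. Members with exactly 2 had Mmp9 in 76% and averaged 134 S100a4 and 3.12 Srgn molecules. Members with 3 to 5 had Mmp9 in 81.7%, with 175 and 7.78, and those with 6 or more in 95.8%, with 217 and 3.35. Mmp9 and S100a4 were therefore higher at each step of Ctsk and Atp6v0d2, while Srgn had no such order among the members. Depth was higher at each step too, from a median of 106 molecules to 427. The part of depth in these steps was not tested. Alpl, the alkaline phosphatase of osteoblasts, and Lef1, a transcription factor of the Wnt pathway also active in lymphoid progenitors, went the other way, since they were found in 37.4% and 37.2% of the 1786 cells with at least 3 Acp5 molecules outside the rule and in 4.19% and 3.99% of members. Cells with Acp5 outside the rule thus included cells unlike the members.

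Among the 10 targets with the lowest ratios by level, 7 were at 0 in all 501 members, and these stand first in that order only because a ratio of 0 does. They were Cdh13, Sema3g, Panx3, Wnt4, Col22a1, Fzd4 and Rspo1, each with 50 to 282 molecules in the 10029 other cells. Against a floor of 3 molecules over the members, Cdh13, a cadherin of endothelial and other cells, was at least 4.70-fold lower by molecules per cell and Sema3g, a semaphorin of arterial endothelium, at least 3.31-fold. For Col22a1, Fzd4 and Rspo1 that floor gave no bound below equality, so the absence of a molecule was not informative per cell.

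The other 3 were measured in both groups. Hlf, a transcription factor of haematopoietic stem cells, had 4 molecules in all members and 3943 in other cells, a ratio of 0.0203 per cell (0.00553 to 0.0520), and was found in 0.798% and 15.9% of cells. Lef1 had 58 and 13794 molecules, a ratio of 0.0842 (0.0639 to 0.109). Col10a1, the collagen of hypertrophic chondrocytes, had 9 and 5215 molecules, a ratio of 0.0345 (0.0158 to 0.0656), but nearly the same share of cells in both, 1.60% and 1.47%, so the difference lay in few other cells with many molecules. For Hlf and Lef1, in contrast, the share of cells itself differed.

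Cell cycle targets were found in many members. By molecules per cell 3 of the 5 on the panel were lower than in the other cells by less than 2-fold. Their intervals lay below 1 but cover counting error alone and not the spread between cells. Top2a, a topoisomerase of dividing cells, averaged 6.85 molecules in members and 9.52 in other cells, a ratio of 0.719 (0.695 to 0.744). Mki67, the proliferation antigen, averaged 4.36 and 5.44, a ratio of 0.801 (0.767 to 0.836), and the ratio of Ccne1, which encodes cyclin E1, was 0.796 (0.738 to 0.858). Cdk1, the mitotic kinase, averaged 5.48 and 5.42, and the interval of its ratio of 1.01 included 1 (0.972 to 1.05). By level all 5 were over 2-fold lower. By rest-of-panel level Mki67, Cdk1, Ccne1 and Ccnd1 lay above 1, at 1.04, 1.31, 1.03 and 1.45, and Top2a below it, at 0.932. The intervals of Mki67 (0.994 to 1.08) and Ccne1 (0.956 to 1.11) included 1. Only Top2a was therefore lower on all 3 measures, and no direction held on all of them for the other cell cycle targets.

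The spread between members was wide. The sum of Mki67, Top2a and Cdk1 ranged from 0 to 159 molecules with a median of 4 in members and 11 in other cells. It was 0 in 88 members (17.6%) and 20 or more in 146 (29.1%), against 21.4% and 39.7% of other cells. Members therefore included cells with many cell cycle molecules and cells with none. Across the 501 members Mki67 and Top2a molecules correlated with a Spearman coefficient of 0.76, which is a description of cells of 1 library that share differences in depth. Phase was not called.

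Ccnd1, which encodes cyclin D1, and Myc are targets of Wnt signalling in many tissues. Ccnd1 averaged 2.82 molecules in members and 2.52 in other cells, a ratio of 1.12 (1.06 to 1.18). Myc averaged 6.70 and 7.48, a ratio of 0.896 (0.865 to 0.928), and was found in 81.0% of members and 68.8% of other cells. By level both lay below 0.5, and by rest-of-panel level both lay above 1. The third target of that list, Lgr5, had 2 molecules in the members.

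The Wnt pathway was the subject of the panel, and little of it was found in the members at the level of ligands. Of 16 Wnt ligands, 8 had no molecule in any member, and all together gave 53 molecules, with a molecule in 7.78% of members and 7.25% of other cells. By molecules per cell 1 of 9 tested ligands had a ratio of 2 or more and 3 had one of 0.5 or less (5.26% higher and 34.7% lower over all tested targets). The 3 were Wnt4 with 0 molecules in members, Wnt10a with 1 and an interval that included 1 (0.00626 to 1.43), and Wnt11 with 5 (0.115 to 0.841). The higher one was Wnt6, with 22 molecules in members, a ratio of 2.34 (1.43 to 3.65) and a molecule in 4.39% of members and 1.78% of other cells. By level its ratio was 0.890 (0.545 to 1.39), and thinned to 50 molecules of any target it was in 0.602% of members and 1.22% of other cells, so its direction depended on the measure. Wnt2 had 8 molecules and Wnt5b 7, too few to rank.

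Frizzled proteins are the receptors of Wnt ligands. All 8 on the panel were tested, and by molecules per cell none had a ratio of 2 or more and 3 had one of 0.5 or less (5.26% higher and 34.7% lower over all tested targets), Fzd6, Fzd9 and Fzd4, the last at 0 with no bound per cell. Fzd5 had the most molecules in the members, at 0.277 molecules per cell against 0.166, a ratio of 1.67 (1.40 to 1.99), and Fzd7 the next, at 0.168 against 0.309, a ratio of 0.543 (0.432 to 0.675). The ratios of these 2 receptors thus lay on opposite sides of 1. Fzd9 had 6 molecules in members and 1324 in other cells, and Fzd6 15 and 1404. Thinned to 30 molecules outside the rule targets and S100a4, Fzd5 was in 11.2% of members (8.31 to 14.6) and 5.84% of other cells, and Fzd7 in 5.84% (3.78 to 8.56) and 9.67%. Without that restriction, at 50 molecules of any target, Fzd5 was in 2.21% of members and 7.41% of other cells, so its direction depended on whether Acp5 and S100a4 were counted.

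Inside the cell, 8 components of the pathway were tested. By molecules per cell none had a ratio of 2 or more and 1, Lef1, had one of 0.5 or less. Over all tested targets these shares were 5.26% and 34.7%. By level none had a ratio of 2 or more and 5 had one of 0.5 or less, beside 2.11% and 87.4% of all tested targets. Axin1, a scaffold of the complex that degrades beta-catenin, averaged 1.77 molecules in members and 1.85 in other cells. Apc, of the same complex, averaged 1.38 and 1.13, a ratio of 1.22 (1.13 to 1.31). Dvl1, the dishevelled protein that relays the signal from frizzled receptors, averaged 1.12 and 0.572, a ratio of 1.96 (1.79 to 2.14) just short of 2-fold, and was found in 64.3% and 40.3% of cells. Ccny, a cyclin that activates the kinase of the co-receptor, averaged 0.689 and 0.471. By level the ratios of Apc, Dvl1 and Ccny were below 1, at 0.463, 0.744 and 0.556, so their direction depended on the measure. Thinned to 50 molecules of any target, Dvl1 was in 15.5% of members and 23.5% of other cells. At 30 molecules outside the rule targets and S100a4 it was in 41.4% and 18.8%. Signalling components were thus measured in most members, with an intracellular component in 97.0% of them and 95.9% of other cells, while Lef1 was in 3.99%.

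Co-receptors and inhibitors were sparse. Of 6 members of the R-spondin and Lgr axis, Rspo1, Rspo3 and Rspo4 were at 0 in the members, and Rspo3 and Rspo4 had 6 and 1 molecules in the other cells. By molecules per cell, none of the 4 tested had a ratio of 2 or more and 3 had one of 0.5 or less. Over all tested targets these shares were 5.26% and 34.7%. Only for Lgr5, with 2 molecules, did the interval lie below 1 (0.0293 to 0.896). Rspo1 had no bound and Rspo2, with 3 molecules, had 0.101 to 1.49. Lgr4, a receptor of R-spondins, had 68 molecules in members at a ratio of 0.645 (0.499 to 0.821). Of 4 Dickkopf inhibitors Dkk1 and Dkk4 were at 0, and Dkk3 had 25 molecules at a ratio of 0.953 (0.611 to 1.42), which includes 1. Dkk2, the other one tested, had 1 molecule and a ratio of 0.417 whose interval also included 1 (0.0103 to 2.44).

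Bone matrix targets other than Mmp9 and Spp1 did not mark the members. Of 9 tested targets of that list, 1 had a ratio of 2 or more by molecules per cell, Mmp9, and 3 had one of 0.5 or less, near the 34.7% of all tested targets. Postn, the matrix protein periostin, averaged 1.71 molecules in members and 2.15 in other cells, and Mgp, an inhibitor of calcification, 0.335 and 0.781. Mmp13, a collagenase of hypertrophic chondrocytes and osteoblasts, had 16 molecules in members and 3484 in other cells. Alpl had 91 and 19387, a ratio of 0.0940 (0.0756 to 0.115).

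Markers of other cell types were set beside these values for the whole of each list. More than 10% of molecules came from 31 markers listed for non-blood cell types in 7 members (1.40%) and in 1819 other cells (18.1%), and the median share was 0% and 2.63%. Some of these markers were common among cells with Ptprc, with Pecam1 in 49.9% and Alpl in 25.3% of the other cells. The shares given for these lists are therefore not shares of non-blood cells. A molecule of the endothelial list, of which 7 targets were on the panel, was found in 27.9% of members and 60.4% of other cells, with sums up to 34 molecules in members and 99 in other cells, and Sema3g was at 0 in members. Pecam1, which encodes CD31, averaged 0.230 and 1.29 molecules per cell. By molecules per cell none of the 7 had a ratio of 2 or more and 3 had one of 0.5 or less, beside 34.7% of all tested targets.

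A molecule of the 5 chondrocyte targets was found in 4.39% of members and 3.76% of other cells, with sums up to 26 and 3884, and of the 5 osteoblast targets in 8.18% and 27.5%, with sums up to 20 and 197. None of either list had a ratio of 2 or more per cell, and 2 and 1 had one of 0.5 or less. Among these, the chondrocyte target Matn1 rested on 1 molecule with an interval that included 1 (0.00603 to 1.38). These counts and the following ones stand beside 5.26% higher and 34.7% lower over all tested targets. For the 4 mural targets the shares were 2.99% and 9.33%, with sums up to 224 and 957, and 2 of 4 were lower. For the 6 fibroblast targets they were 19.0% and 21.3%, with sums up to 291 and 1712, and 1 of 6 was lower. The 4 reticular targets gave 3.79% and 3.77%, with sums up to 5 and 45, Lepr and Cp at 0 in members, and neither of the 2 tested past 2-fold. Stem and progenitor targets, Hlf, Mecom and Kit, were found in 1.20% and 17.3%, with sums up to 2 and 20, and both tested ones were lower. Kit had no molecule in members or in other cells with Ptprc, so it did not inform on the members. Vwf, the 1 megakaryocyte target measured, had 9 molecules in members at a ratio of 0.382 (0.173 to 0.731). Of the general blood list, Ptprc and Srgn, the sums ranged up to 216 and 405. No target of these non-blood classes was at least 2-fold higher per cell in the members, and the part of foreign transcripts in single cells was not tested.

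Members differed from each other along the share of Acp5, Ctsk and Atp6v0d2 in their molecules. They were ranked by that share and divided into 3 equal groups of 167 cells, with shares of 2.63% to 23.9%, 23.9% to 35.9% and 35.9% to 67.1%. These are ranges and not cell types, and they were cut from values the rule used. The denominator of the share holds all molecules, so a cell with more of any other target has a lower share by construction. The members were therefore also ranked by the summed molecules of the 3 targets, with no denominator, an alternative added after the data were seen, and its ratios are given beside the first. Median depth was 306, 376 and 497 molecules. Molecules per cell are given for the low, middle and high group in that order.

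Mmp9 averaged 4.83, 10.7 and 23.8 molecules, a ratio of 4.94 (4.58 to 5.33) between the high and the low group, and was found in 79.0%, 94.0% and 98.2% of cells. Ecm1 averaged 1.46, 1.95 and 3.05, a ratio of 2.09 (1.79 to 2.44). Fzd5 averaged 0.174, 0.257 and 0.401, a ratio of 2.31 (1.47 to 3.71). By summed molecules the ratios were 7.26 for Mmp9, 3.06 for Ecm1 and 2.78 for Fzd5, so these 3 targets were higher in the high group under both rankings. S100a4 had 185, 202 and 207 molecules by share, a ratio of 1.12 (1.10 to 1.14), and a ratio of 1.64 by summed molecules.

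For the cell cycle targets Mki67, Top2a and Cdk1 the 2 rankings gave opposite directions. Mki67 averaged 5.71, 4.79 and 2.58 molecules, a ratio of 0.452 (0.403 to 0.507), and was found in 80.2%, 59.3% and 40.7% of cells. Top2a averaged 9.31, 7.83 and 3.42, a ratio of 0.367 (0.333 to 0.405). Cdk1 averaged 7.14, 6.25 and 3.05. By summed molecules these ratios were 1.12 (1.01 to 1.24) for Mki67, 1.12 (1.03 to 1.21) for Top2a and 1.09 for Cdk1, so no lower amount in the high group can be stated for them. Ccnd1 was lower under both rankings, with 4.69, 2.99 and 0.766 molecules, a ratio of 0.163 (0.134 to 0.197), and a molecule in 79.6%, 63.5% and 30.5% of cells, and its ratio by summed molecules was 0.297 (0.253 to 0.347). Myc averaged 8.62, 7.02 and 4.45, and Srgn 7.89, 3.80 and 1.49, with ratios of 0.516 (0.472 to 0.564) and 0.188 (0.164 to 0.216), and by summed molecules of 0.728 (0.669 to 0.793) and 0.869 (0.784 to 0.963). Median depth in the low, middle and high group by summed molecules was 252, 360 and 560. All of these intervals treat molecules as independent and so understate the spread between cells.

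**Figure D4:**
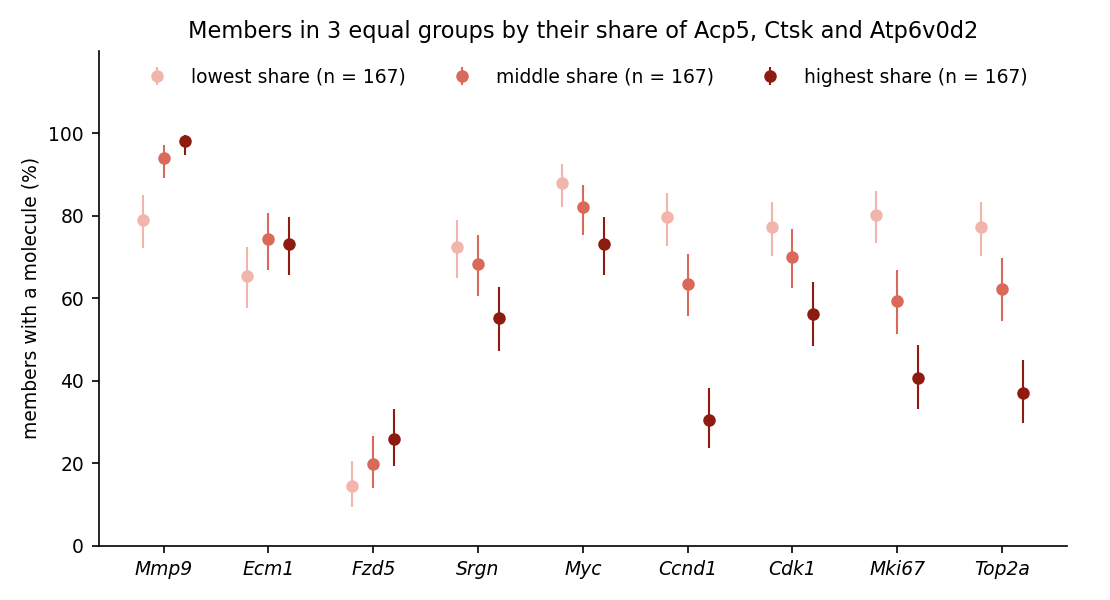
Share of members with at least 1 molecule of each target (y axis, %) in 3 equal groups of 167 cells ranked by the share of Acp5, Ctsk and Atp6v0d2 in their molecules, from pale (lowest share) to dark (highest), with exact binomial 95% intervals. Mmp9 was found in more cells of the highest group and Ccnd1, Mki67 and Top2a in fewer, where Mki67 and Top2a did not keep this direction by summed molecules, at median depths of 306, 376 and 497 molecules.

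The same pairs of targets were followed over single members without grouping. Spearman coefficients of molecules per cell over the 501 members were 0.66 for Mmp9 and Ctsk, 0.51 for Mmp9 and Atp6v0d2 and 0.57 for Ctsk and Atp6v0d2. They were -0.46 for Ccnd1 and Ctsk, -0.24 for Mki67 and Ctsk and -0.30 for Mmp9 and Ccnd1. Computed on shares of molecules, the same pairs gave 0.56, 0.25, 0.36, -0.49, -0.32 and -0.31 in the order above. Ctsk and Atp6v0d2 were also used to choose the members, which bears on their coefficients. All are descriptions over cells of 1 library that differ in depth.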

How the data were processed

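Transcripts of single cells were captured in microwells and amplified with a custom panel, in 1 library for each of the 3 groups. The authors used the BD Targeted Rhapsody Analysis Pipeline 1.8 per the file headers, although the study's methods give an older version, and the submitters' processing notes give the build mm10. The deposited values are counts of molecules per cell and amplicon, either raw or after 1 or both of the pipeline's error corrections. These correct by recursive substitution (RSEC) and then by distribution (DBEC). The deposited counts are not normalized. DBEC counts were used, which were 41.6% of raw molecules in E18.5 BM cells, 21.2% in E18.5 EC and 35.9% in the adult library. This correction removes molecules with few reads and can remove true ones.

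Amplicons of a target were summed, and every barcode had at least 20 molecules. No cell was removed, no clustering was done and no doublet caller was run. Ratios have conditional exact intervals, counts exact Poisson ones and shares exact binomial ones. Thinning drew molecules without replacement (seed 1). Cells are not replicates, so no p-value was computed. The members, markers and lists were chosen with earlier results of these data known. Named targets were the osteoclast markers, the 10 highest and 10 lowest past 2-fold by level and up to 4 of each list with the most molecules in members. Targets outside this rule, among them Srgn, Ecm1, Alpl, Pecam1, Mmp13, Fzd9, Mecom and Epyc, were named after their values were seen. The depletion steps used for Adult BM cells, including whether CD45 cells were removed, are not fully stated. The study's methods name CD31 for the gate of E18.5 EC, and the submitters' design text describes it differently. Some targets of the panel are not reported here. Ratios were tested on simulated data. Python 3.11.15, numpy 2.4.6, pandas 2.3.3, scipy 1.17.1 and matplotlib 3.10.9 were used.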

Additional observations from a re-analysis of the deposited data

Results flagged for a closer look

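Cells that met the rule, or all of it but Ptprc, were also found outside the comparison. Acp5 helped to choose them, so its share is a description, and whether they are of the same type as the members was not tested. In E18.5 EC, 10 cells met the full rule, although endothelial cells had been sorted. Acp5 was 33.3% and S100a4 39.6% of their molecules, Mmp9 was found in 8 of them and they had a median of 554.5 molecules. In E18.5 BM cells, 12 cells without a Ptprc molecule met the other thresholds. Acp5 was 28.4% and S100a4 54.7% of their molecules, Mmp9 was found in 9 and their median depth was 207.5.

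In Adult BM cells, 19 cells without Ptprc met the other thresholds, but their content was different. Acp5 was 0.236% of their molecules, Prg4, which encodes the joint lubricant lubricin, was 78.6%, none had Mmp9 and their median depth was 3215 molecules. These adult cells were thus unlike the members, and differences between libraries were not tested.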

How the results depend on the processing

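The share of cells with Ptprc that were members in E18.5 BM cells was 5.32% with RSEC and 5.45% with raw molecules, 5.86% among cells with at least 50 molecules and 5.68% without cells over 10% non-blood markers. In Adult BM cells it was 0.679% (22 cells) with RSEC molecules and 0.710% (23) with raw ones. Without the Ptprc condition the adult value was 1.12%, made up of the 19 cells without Ptprc described above, whose content was unlike that of the members. A threshold of 2 or 5 for Acp5 left the 501 members as they were. By level, 4 targets were higher against other cells at or above the lower quartile of the members in depth, which leaves 413 such cells. Leaving S100a4 out of the denominator gave 11 higher and 30 lower, and molecules per cell 5 and 33. The Mmp9 ratio of 43.2 became 19.2 with RSEC and 22.1 with raw molecules, 30.5 with all molecules in the denominator, 34.0 with cells weighted equally, 35.6 against deep cells, 147 without S100a4 and 114 per cell. It stayed above 1 in each. The ratio of Apc turned to 1.14 against deep cells. Of ratios past 2-fold by level, those of Axin1 (1.24), Apc (1.58), Myc (1.16), Ccnd1 (1.45), Mki67 (1.04) and Cdk1 (1.31) turned above 1 without S100a4 in the denominator, and those of Apc (1.22), Ccnd1 (1.12) and Cdk1 (1.01) by molecules per cell. Ratios between 0.5 and 1 by level, among them those of Spp1, Ecm1, Fzd5, Dvl1, Ccny and Wnt6, also lay above 1 on both of these measures. Ranking the members by summed molecules turned the ratio of the high to the low group above 1 for Mki67 (1.12), Top2a (1.12) and Cdk1 (1.09). Of 241 values for named targets, 103 moved by less than their interval, 128 by more and 10 that had been past 2-fold turned. No paired analysis was possible because each group has 1 library. Depth limits detection of sparse targets, and a cell of few molecules can miss the rule.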

Other observations

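Stab1, a scavenger receptor of macrophages and sinusoidal endothelium that stands in the endothelial list, was also measured in the members of E18.5 BM cells and was chosen after its values were seen. It was found in 17.6% of members (14.3 to 21.2) and in 27.4% of cells with Ptprc and at least 3 Acp5 molecules outside the rule (25.4 to 29.6), although the members were deeper. Means were 0.255 molecules per cell in members, 1.12 in those cells with Acp5 outside the rule and 0.307 in cells with Ptprc and fewer than 3 Acp5 molecules.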
